A study of Arabidopsis thaliana with 16 samples.

Results

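Transcript levels at 22 °C were compared between Arabidopsis seedlings of the QK line and wild-type (WT) seedlings, using 4 of the 16 arrays of the study: 2 QK arrays minus 2 WT arrays that were not heated. QK is a quadruple knockout of the genes HSFA1A, HSFA1B, HSFA1D and HSFA1E, and its genome is a mixture of the accessions Col-0 and Ws; WT is Col-0. The QK mutations and the Ws part of its genome therefore cannot be told apart in this comparison. RNA came from whole seedlings 7 days old, grown at 22 °C with 16 h of light on 0.5X MS medium after 3 days at 4 °C. Further arrays, 2 for each group, show how the same genes stood elsewhere: QK against WT after heat, and A2QK against hsfa2 at 22 °C. Heat was a water bath at 37 °C for 1 h. All 16 arrays also entered the fit, so the spread behind each test at 22 °C comes from all 8 groups. The hsfa2 arrays of both temperatures also serve to pick heat-responsive genes. A2QK is QK carrying HSFA2 under the CaMV 35S promoter, a viral promoter active in most plant tissues, and hsfa2 is a knockout of HSFA2 in Col-0. In that pair the lines differ in HSFA2 as well as in the HSFA1 genes and the background.

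HSFA1 proteins are transcription factors that sit at the top of the plant heat shock response. In unstressed cells they are held inactive by chaperones of the HSP70 and HSP90 families; on heating they are released, bind heat shock elements in promoters, and switch on chaperone genes and further factors such as HSFA2. At the growth temperature the study used QK as the line that has lost the HSFA1-controlled response and WT as the line with a normal one. The annotation lists no probe set for the 4 HSFA1 genes or for HSFA2, so the genotypes could not be checked by the disrupted genes, whose levels are not analysed here.

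Levels are log2 values made by the authors with RMA, and a difference of 1 is a 2-fold difference. Array medians were 5.14 and 5.19 in QK and 5.13 and 5.05 in WT. Across probe sets QK array 1 correlated with QK array 2 at r = 0.967 and with WT array 1 at r = 0.975, and WT array 1 with WT array 2 at r = 0.959. Leaf and root genes of the marker lists were measured in all 4 arrays. RCA, which activates Rubisco, had levels of 12.89 and 13.06 in QK and 12.80 and 13.09 in WT, and the root-hair expansin gene EXPA7 5.55 and 5.98 in QK and 5.51 and 6.11 in WT. Of 7 photosynthesis, 2 root and 3 pollen genes measured, 0 passed limma's test (0 at an unadjusted p under 0.05), and the medians of their changes were -0.19, 0.08 and -0.22. The seed list is described with the results.

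Of the 15 named genes with the highest change in QK, 8 were on the seed and embryo, late embryogenesis abundant (LEA) or seed reserve lists. The LEA list is a protein family and also holds cold- and drought-induced genes. Of these 8, only LEA76 and LEA18 were on the fixed seed and embryo list. The rest were only on lists drawn up after values had been seen, so this count is largely built in. The falls included 7 genes of intracellular immune receptors. Of 23 measured genes on the fixed chaperone and co-chaperone lists, 1 was called, a count that moved when single WT arrays were left out. Of 22746 probe sets, 498 were called (2.19%), meaning an adjusted p under 0.05 by limma with Benjamini-Hochberg adjustment. QK was higher for 277 (1.22%) and lower for 221 (0.972%), and 384 of them (1.69%) differed at least 2-fold. They include 262 of 13355 named genes (1.96%), 150 higher (1.12%) and 112 lower (0.839%). In every one of the 262 the 2 QK arrays did not overlap the 2 WT arrays. Over all 13355 named genes, QK lay above WT without overlap in 2083 and below WT without overlap in 2413. The count of called probe sets depended on the fit. It was 47 with the 8 QK and WT arrays of both temperatures fitted alone. Fitted alone here always means without a term for the array number. With only the 4 arrays at 22 °C limma called 0, although 1405 probe sets had an unadjusted p under 0.05. It was 272 without WT array 2.

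**Figure D1:**
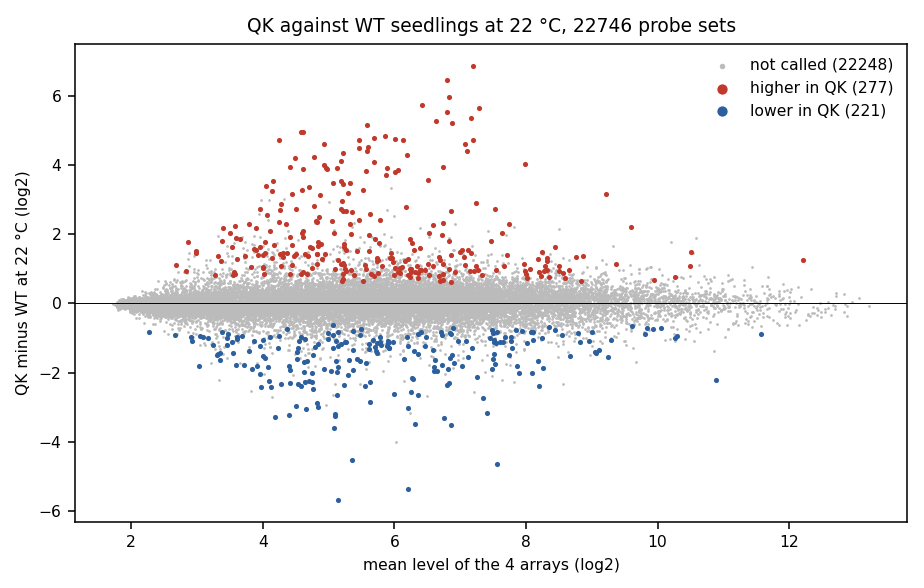
Difference between QK and WT at 22 °C (vertical axis, log2, QK minus WT) against the mean level of the 4 arrays (horizontal axis, log2) for 22746 probe sets, with the 277 called higher in QK in red, the 221 called lower in blue and the rest in grey. Called differences reach further upward than downward and lie mostly at low and middle levels.

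The levels of the called genes differed by direction. The 150 higher genes had a median level of 6.58 in QK and 4.00 in WT. Of them, 34 (22.7%) lay below the 30th percentile of the array on both WT arrays, against 33.2% of all named genes. The 112 lower genes had a median level of 4.71 in QK and 6.45 in WT. Of them, 21 (18.8%) were that dim on both QK arrays, against 33.3% of all named genes. Arrays of a line also differed more among the higher than among the lower genes. The 2 QK arrays were over 1 log2 unit apart for 53 of 150 higher and 4 of 112 lower genes, and the 2 WT arrays for 15 and 4. Over all 13355 named genes the counts were 818 for the QK arrays and 1050 for the WT arrays.

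The 15 highest named genes had changes from 4.30 to 5.74, and 3 called probe sets without a single named gene lay above them, up to 6.88. AT3G17520 had levels of 8.76 and 9.82 in QK and 2.38 and 4.73 in WT, a change of 5.74 ± 0.78 (adjusted p = 0.00269). Changes are log2 differences, QK minus WT unless another pair is named, and the value after ± is the standard error (SE) from the fit. BGLU19 (AT3G21370), a beta-glucosidase gene, had levels of 8.84 and 10.84 in QK and 3.52 and 5.44 in WT, a change of 5.36 ± 0.73. In both genes array 2 was the higher array of its line, and the lines did not overlap. That order was common at the top: QK array 2 exceeded QK array 1 in 13 of the 15 genes, and WT array 2 exceeded WT array 1 in all 15. The exceptions among QK arrays were AT3G28320, with 11.03 and 7.51 in QK and 3.96 and 4.03 in WT, and AT1G50290, with 8.62 and 6.95 in QK and 3.34 and 3.44 in WT. The other highest genes were AT3G02480, AT2G28490, M17, AT1G54870, LEA76, AT2G25890, LEA18, ICL, AT1G04560, AT5G07330 and AT3G21380.

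**Figure D2:**
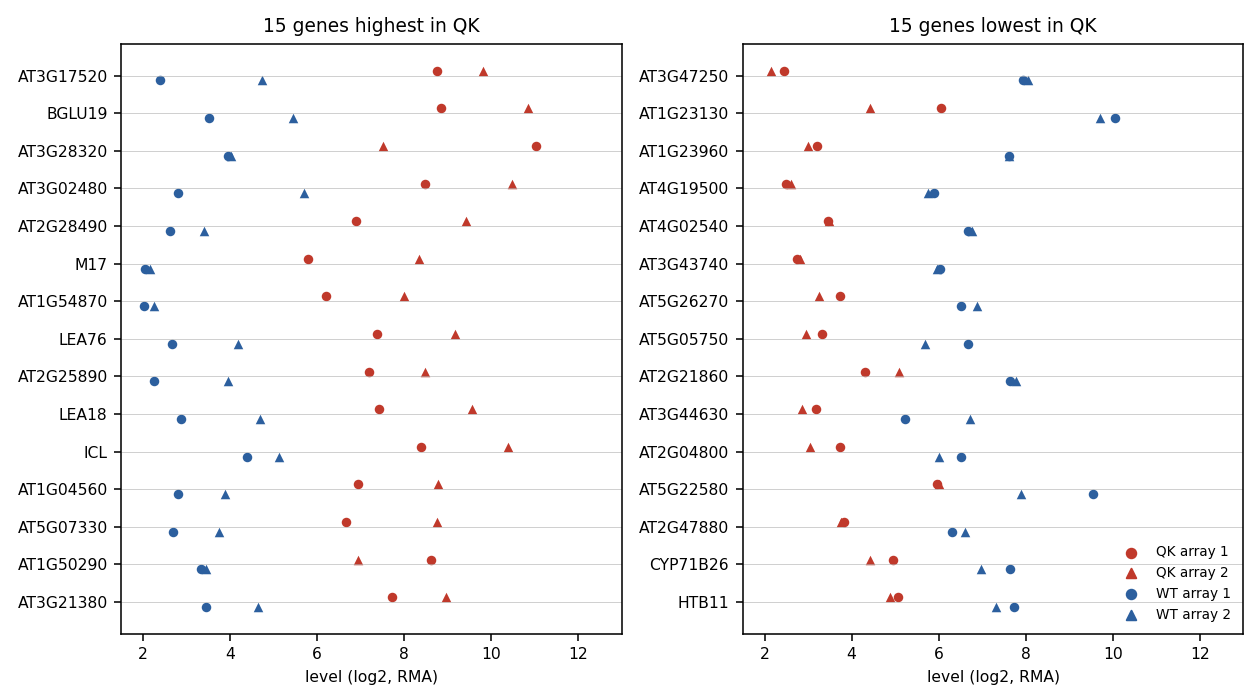
Level (horizontal axis, log2, RMA) of the 15 genes with the highest (left panel) and the 15 with the lowest change (right panel) between QK and WT at 22 °C, with QK arrays in red and WT arrays in blue, array 1 as circles and array 2 as triangles. No QK array overlaps a WT array in any of the 30 genes, as the naming rule required. In the left panel QK array 2 lies right of QK array 1 in 13 genes.

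The list of seed and embryo markers had 4 of its 29 genes measured, and 3 rose. Late embryogenesis abundant (LEA) proteins protect cell contents while a seed dries. LEA76 (AT3G15670) had levels of 7.37 and 9.16 in QK and 2.67 and 4.19 in WT, a change of 4.83 ± 0.67 (adjusted p = 0.00311). LEA18 (AT2G35300) had 7.43 and 9.55 in QK and 2.87 and 4.68 in WT, a change of 4.72 ± 0.80 (adjusted p = 0.0104). OLEO3 (AT5G51210), an oleosin that coats oil bodies, had 4.00 and 5.25 in QK and 3.16 and 3.29 in WT, a change of 1.40 ± 0.29 (adjusted p = 0.0296). LEA76 and LEA18 thus stood far above WT on both QK arrays, and OLEO3 was closest to WT on QK array 1. In RNA of whole seedlings, a higher level in the cells that express a gene and a larger number of such cells cannot be told apart. LEA4-5 (AT5G06760) had 6.45 and 8.79 in QK and 3.44 and 5.14 in WT, and its change of 3.33 ± 0.83 did not pass (adjusted p = 0.0679). It did pass with a term for the array number (adjusted p = 0.0154), without QK array 1 and without either heated QK array. LEA18 did not pass without QK array 2 or without WT array 1, and OLEO3 did not with any 1 of 11 arrays left out, QK array 2 and both WT arrays among them. The list's median was 4.02, against -0.01 over all genes, and 1 member was called without QK array 2, 1 without WT array 1 and 0 with the QK and WT arrays fitted alone.

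Because such genes stood at the top, a catalogue of 54 LEA genes was drawn up after the values had been seen, and 38 were measured. QK was higher for 11 (28.9%) and lower for 0, and the median change was 1.00. M17 (AT2G41260), a seed LEA gene, had levels of 5.79 and 8.35 in QK and 2.04 and 2.16 in WT, a change of 4.97 ± 0.60 (adjusted p = 0.00132). AtLEA4-1 (AT1G32560) had 6.92 and 8.52 in QK and 3.80 and 4.22 in WT, a change of 3.71 ± 0.58 (adjusted p = 0.0068). The gene with the symbol LEA (AT2G21490) had 4.05 and 5.37 in QK and 2.29 and 2.62 in WT, a change of 2.25 ± 0.40 (adjusted p = 0.0131). In each of these the higher QK array was array 2, and both QK arrays lay above both WT arrays. The other called members were AT3G17520, AT3G02480, AT5G66780, AT3G53040, AT5G44310 and AT2G23110, beside LEA76 and LEA18. Without QK array 2, LEA, AT2G23110, AT3G02480 and AT3G53040 did not pass. Without WT array 1, LEA, AT3G02480 and AT3G53040 did not, and AT3G53040 also did not without WT array 2 or either heated hsfa2 array. Not every LEA gene was called: the cold- and drought-induced members COR47 (0.76 ± 0.41), LTI30 (0.86 ± 0.49), COR15A (-0.04 ± 0.40) and COR15B (-0.92 ± 0.82) did not pass. COR47 passed without WT array 1. The count was 6 without QK array 2, 18 without QK array 1 and 0 with the QK and WT arrays fitted alone.

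Genes of oil bodies, seed storage proteins and the use of seed reserves formed a list of 30, also drawn up after the values had been seen, of which 15 were measured. QK was higher for 10 (66.7%) and lower for 0, the median change was 2.78, and all 15 changes were above 0. ICL (AT3G21720), isocitrate lyase of the glyoxylate cycle through which seedlings turn stored oil into sugar, had levels of 8.39 and 10.38 in QK and 4.39 and 5.13 in WT, a change of 4.62 ± 0.50 (adjusted p = 0.000507), or 24.6-fold. DELTA-VPE (AT3G20210), a vacuolar processing enzyme expressed in seed tissue, had 6.59 and 7.91 in QK and 2.66 and 3.59 in WT, a change of 4.13 ± 0.41. BETA-VPE (AT1G62710), which processes storage proteins, had 6.87 and 8.25 in QK and 4.05 and 5.52 in WT, a change of 2.78 ± 0.49. In all 3 genes each QK array lay above each WT array, and array 2 was the higher array of both lines. PAP85 (AT3G22640), a storage protein of the vicilin type, had 5.26 and 5.96 in QK and 2.87 and 2.97 in WT, a change of 2.69 ± 0.31 (adjusted p = 0.000901). BETA-VPE did not pass without QK array 2 or without WT array 1. ALPHA-VPE and GAMMA-VPE, the forms found in leaves and roots, had changes of 0.54 ± 0.37 and 0.28 ± 0.31 and did not pass. The count was 8 without QK array 2, without WT array 1 or without WT array 2, and 0 with the QK and WT arrays fitted alone.

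**Figure D3:**
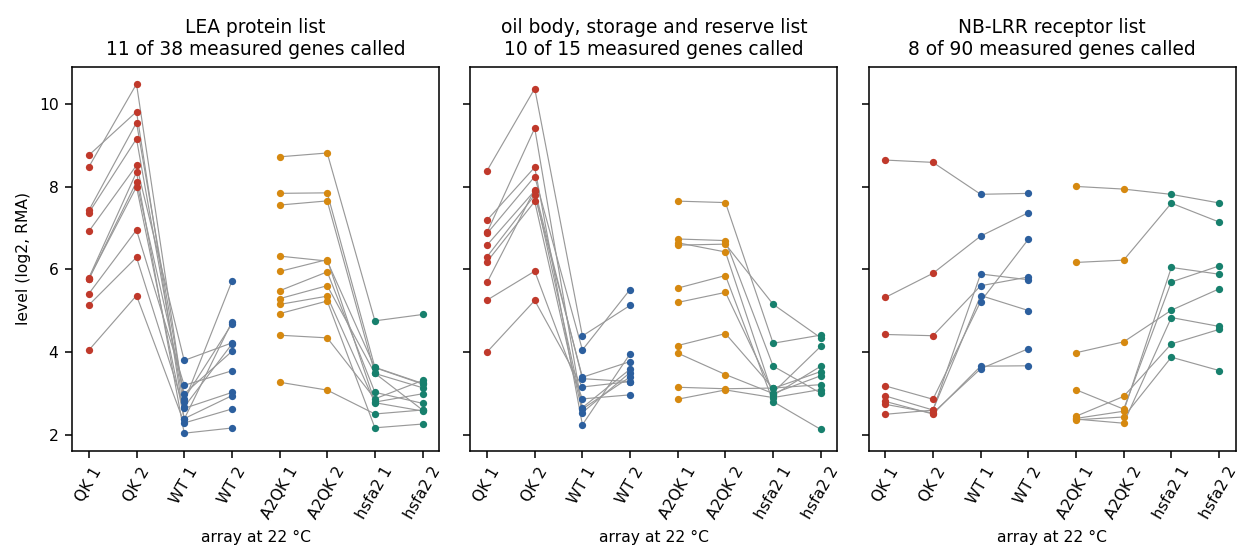
Level (vertical axis, log2, RMA) on each of 8 arrays at 22 °C (horizontal axis) of the called members of the LEA list (11 genes), the oil body, storage and reserve list (10 genes) and the NB-LRR list (8 genes), with points joined for each gene within QK and WT and within A2QK and hsfa2. The genes of the LEA and reserve lists are mostly high on both QK arrays, highest on QK array 2, and low on the WT and hsfa2 arrays. Of the 8 NB-LRR genes, 7 are lower on the QK than on the WT arrays.

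The 15 lowest genes had changes from -5.69 to -2.55. AT3G47250 had levels of 2.46 and 2.16 in QK and 7.93 and 8.05 in WT, a change of -5.69 ± 0.23 (adjusted p = 5.39e-07). AT1G23960 had 3.19 and 2.99 in QK and 7.62 and 7.61 in WT, a change of -4.52 ± 0.22 (adjusted p = 1.63e-06). Both genes lay below the 30th percentile of each QK array (3.44 and 3.42) and well within the scale on the WT arrays. The values carry no call of signal above background, so the size of a change against a level this low is uncertain. AT1G23130 had 6.05 and 4.42 in QK and 10.06 and 9.70 in WT, a change of -4.65 ± 0.42 (adjusted p = 0.00016). It lay above the 30th percentile of each QK array. HTB11 (AT3G46030), a histone H2B gene, had 5.07 and 4.88 in QK and 7.73 and 7.33 in WT, a change of -2.55 ± 0.20 (adjusted p = 5.78e-05). CYP71B26 (AT3G26290), a cytochrome P450, had 4.95 and 4.41 in QK and 7.63 and 6.97 in WT, a change of -2.62 ± 0.24, and was the single member called of 26 measured P450 genes, whose median was -0.09. Unlike the highest genes, these had no common order of arrays: QK array 2 exceeded QK array 1 in 5 of the 15, and WT array 2 exceeded WT array 1 in 6.

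NB-LRR genes, which encode intracellular immune receptors and vary in number and sequence between accessions, were grouped after some of them had been seen among the lower genes. Of 151 listed, 90 were measured, and QK was lower for 7 and higher for 1 (8.89% called), with a list median of -0.02. AT4G19500 had levels of 2.50 and 2.60 in QK and 5.89 and 5.75 in WT, a change of -3.27 ± 0.20 (adjusted p = 9.63e-06). AT3G44630 had 3.18 and 2.86 in QK and 5.23 and 6.73 in WT, a change of -2.96 ± 0.51 (adjusted p = 0.0117). CSA1 (AT5G17880), a receptor gene linked to growth under altered light, had 2.94 and 2.60 in QK and 5.37 and 5.01 in WT, a change of -2.42 ± 0.24 (adjusted p = 0.000282). AT3G44630 did not pass without QK array 2 or without WT array 2, whereas AT4G19500 and CSA1 passed without any single array. These genes were low on both QK arrays, and no QK array reached the WT range. The other lower members were AT4G19530 (-1.48), AT2G14080 (-1.30), AT4G36140 (-1.21) and AT5G05400 (-1.01), and the higher one was AT5G45510 (0.79). The count was 2 without WT array 2, 3 without QK array 2, 5 without QK array 1 and 2 with the QK and WT arrays fitted alone. Whether these probe sets read the Ws alleles as well as the Col-0 alleles was not tested. SAG101 (AT5G14930), which works with EDS1 in receptor signalling, was the single measured gene of 21 on the salicylic acid and immunity list; it had 4.41 and 4.07 in QK and 3.23 and 2.69 in WT, a change of 1.28 ± 0.23 (adjusted p = 0.0132) that did not pass without QK array 1 or without WT array 2.

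The listed chaperone genes, the classical targets of HSFA1, were mostly not called at 22 °C. Chaperone-type genes outside the fixed lists were not counted. Small heat shock proteins keep unfolding proteins from clumping; 9 of 17 were measured and 0 were called by limma (1 at an unadjusted p under 0.05), with a median change of 0.15 at 22 °C and -6.39 after heat, where 7 were lower. HSP17.6C (AT1G53540) had levels of 3.33 and 2.88 in QK and 3.09 and 2.81 in WT, a change of 0.15 ± 1.26. HSP23.5 (AT5G51440), a mitochondrial form, had 2.08 and 2.37 in QK and 3.85 and 5.01 in WT, a change of -2.21 ± 0.88 (adjusted p = 0.311) that passed without either heated QK array (adjusted p = 0.00541). HSP17.6C was near the bottom of the scale on all 4 arrays, whereas HSP23.5 was higher on both WT arrays. The fit pools the spread of all groups, and the heated QK arrays lay far apart for these genes, with 3.54 and 9.50 for HSP17.6C. DNAJ, a co-chaperone gene, also passed without either of them (-1.72; adjusted p = 0.00732).

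The listed co-chaperone genes all had changes below 0. For 8 of the 10, WT array 2 stood highest of the 4 arrays. Of 21 co-chaperone and heat tolerance genes 10 were measured and 1 was called, with a median change of -0.85. That gene, SGT1A (AT4G23570), which works with HSP90, had 6.05 and 5.66 in QK and 6.73 and 7.45 in WT, a change of -1.23 ± 0.22 (adjusted p = 0.0126) that did not pass without QK array 2 or without WT array 2. ROF2 (AT5G48570), an HSP90-binding immunophilin, had 3.45 and 3.55 in QK and 4.40 and 7.08 in WT, a change of -2.24 ± 0.81 (adjusted p = 0.245). HOP3 (AT4G12400), which links HSP70 to HSP90, had 3.11 and 3.21 in QK and 3.36 and 5.46 in WT, a change of -1.25 ± 0.75 (adjusted p = 0.596). In ROF2 and HOP3 the QK arrays agreed closely while WT array 2 stood over 2 log2 units above WT array 1. HSC70-3 (AT3G09440), a cytosolic HSP70, had 8.05 and 8.71 in QK and 8.20 and 11.06 in WT (-1.24 ± 0.68). HSC70-2 (AT5G02490) had 4.80 and 4.72 in QK and 5.72 and 7.20 in WT, a change of -1.70 ± 0.39 that missed the threshold (adjusted p = 0.0518). It passed with array medians set equal, with dim probe sets left out, with limma-trend and with a term for the array number (adjusted p from 0.0196 to 0.0489). It also passed without WT array 1, with a change of -2.44. WT array 2 exceeded WT array 1 in 8 of the 10 co-chaperone genes, in both HSC70 genes and in the chaperonin gene CPN60B2. Within array 1 the list's median difference was -0.31, and within array 2 it was -1.28. Without WT array 1 the co-chaperone list had 2 called genes, the HSP70 family 2 and the chaperonin list 1: SGT1A, ROF2, HSC70-2, HSC70-3 and CPN60B2. Without WT array 2 the co-chaperone list had 0, and HSC70-3, FES1A and HSA32 turned to changes of 0.18, 0.013 and 0.18. The P23-1 gene (AT4G02450), an HSP90 co-chaperone, had 6.03 and 6.76 in QK and 7.26 and 7.31 in WT. Its change of -0.89 ± 0.22 did not pass (adjusted p = 0.0702). It did pass with array medians set equal (adjusted p = 0.0436) and with a term for the array number (adjusted p = 0.0300). It also passed without QK array 2, with a change of -1.26. Of 5 measured genes of endoplasmic reticulum folding, 0 were called (0 at an unadjusted p under 0.05), with a median of 0.17.

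**Figure D4:**
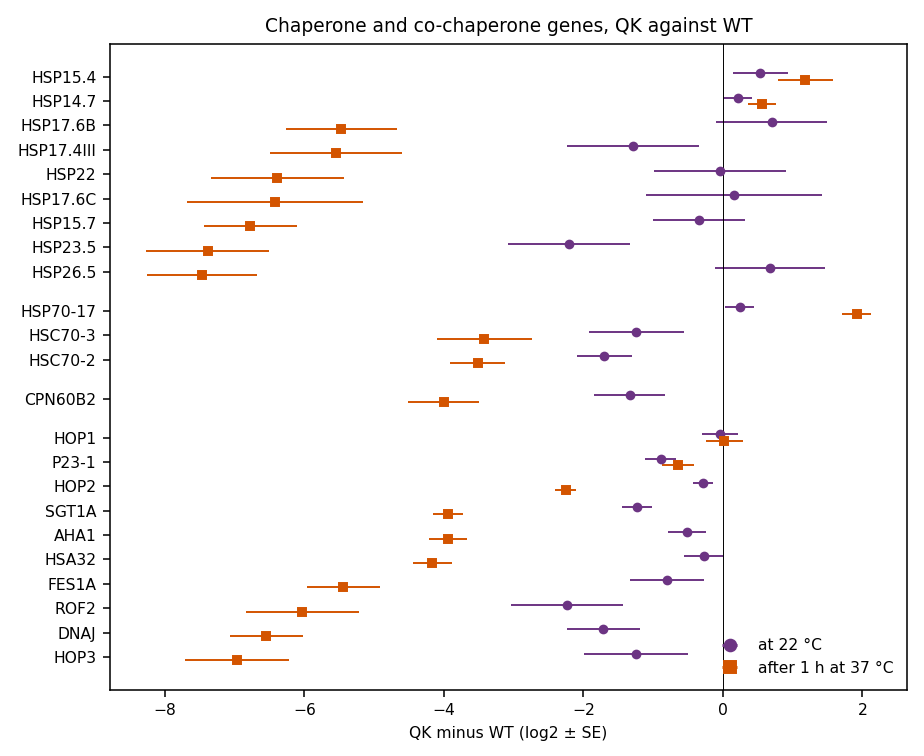
Difference between QK and WT (horizontal axis, log2 ± SE, QK minus WT) at 22 °C (circles) and after 1 h at 37 °C (squares) for 23 chaperone and co-chaperone genes, grouped as small heat shock proteins, HSP70 family, chaperonin and co-chaperones. At 22 °C the small heat shock proteins scatter around a median of 0.15 and all 10 co-chaperones lie below 0, and after heat most genes of both groups lie far below 0.

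Heat-responsive genes were also picked by the change between heated and unheated hsfa2 seedlings, in which no QK or WT level enters. The spread behind these calls still comes from all 16 arrays, QK and WT included. Heat raised 577 probe sets of hsfa2 at least 2-fold, and 14 of these were called between QK and WT at 22 °C (2.43%, against 2.19% of all probe sets), 8 higher and 6 lower, with a median change of -0.05. After heat the same 577 had a median of -1.15, with 313 lower and 33 higher. Of 1060 probe sets lowered by heat in hsfa2, 37 were called at 22 °C (3.49%), 22 higher and 15 lower. The first count was 43 without WT array 1 and 27 without QK array 1, and the second 13 without WT array 2 and 19 without QK array 2.

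Hormone and metabolic lists gave few calls. IAA29 (AT4G32280), a repressor of the auxin response, had levels of 4.54 and 4.27 in QK and 6.40 and 6.26 in WT, a change of -1.93 ± 0.16 (adjusted p = 0.00011). It was the single gene called of the 5 measured on the fixed auxin list, all with changes below 0 (median -0.53). Auxin-related genes outside that list were not counted. GH3.3, which conjugates auxin to amino acids, had 5.73 and 5.69 in QK and 6.79 and 6.41 in WT, a change of -0.90 ± 0.26 that did not pass (adjusted p = 0.133) except without either heated hsfa2 array (adjusted p = 0.0442). Limma called 0 of 4 measured genes of abscisic acid, drought and cold, 0 of 3 of jasmonate and 0 of 4 of glucosinolates. It also called 0 of 6 of flavonoids, 0 of 8 on the fixed expansin and XTH list and 0 of 4 reference genes. At an unadjusted p under 0.05 these lists had 1 gene, BCAT4 of glucosinolate synthesis, with 6.27 and 8.02 in QK and 8.52 and 8.60 in WT, which passed without QK array 2 (adjusted p = 0.0149). Iron, antioxidant, clock, cell cycle and accession-variable lists had 3, 3, 1, 2 and 1 measured genes and 0 called, 1 of them, an antioxidant gene, with an unadjusted p under 0.05. Heat shock factors and phosphate, nitrate and sulphur genes had 0 measured members. Of 69 plastid-encoded genes, 56 had changes below 0 and the median was -0.41, but the arrays of a line also differed. Mean levels were 7.55 and 8.48 in QK and 7.78 and 9.03 in WT, and WT array 2 exceeded WT array 1 in 60 genes. QK lay below WT without overlap in 8 and above in 1. Only 1 was called: psbB, a core protein of photosystem II, had 8.21 and 7.61 in QK and 9.11 and 9.75 in WT. Its change was -1.52 ± 0.25 (adjusted p = 0.00903), a call that depended on QK array 2 and on WT array 2.

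Of the 262 called genes, 49 carry a symbol, 33 higher and 16 lower; those in this paragraph were chosen after their values were seen. Among genes of metal and sulphur handling, CCS (AT1G12520), the copper chaperone of superoxide dismutase, had 9.20 and 8.59 in QK and 6.64 and 6.53 in WT, a change of 2.31 ± 0.23 (adjusted p = 0.000307). APS4 (AT5G43780), an ATP sulfurylase of sulphate assimilation, had 9.75 and 9.11 in QK and 8.06 and 8.09 in WT, a change of 1.36 ± 0.24 (adjusted p = 0.0138). Both genes were higher on QK array 1 than on QK array 2, unlike LEA76, LEA18 and OLEO3. PDF1.4 (AT1G19610), a plant defensin, had 7.00 and 6.93 in QK and 3.79 and 3.05 in WT, a change of 3.55 ± 0.31. It was called alone among the 7 measured genes with a PDF symbol. Defensins under other symbols were not in that count. LCR67 and LCR68, which lie outside it, were also called higher, but not with the QK and WT arrays fitted alone. Of 20 beta-glucosidases, BGLU19, BGLU45 (1.54 ± 0.17) and BGLU46 (1.15 ± 0.19) rose. Among the lower genes, CYN (AT3G23490), a cyanase that breaks down cyanate, had 7.47 and 7.42 in QK and 8.63 and 8.53 in WT, a change of -1.14 ± 0.17 (adjusted p = 0.00407). SWEET16 (-1.29 ± 0.25) and SWEET17 (-1.15 ± 0.22) encode vacuolar sugar carriers, EXGT-A3 (-1.56 ± 0.29) a cell-wall xyloglucan enzyme and RALFL27 (-1.49 ± 0.28) a signalling peptide. EXGT-A3 was not on the fixed expansin and XTH list, so the count of 0 called there does not cover it. CCS, PDF1.4, BGLU45 and CYN passed without any single array. APS4 and BGLU46 did not pass without QK array 1 or without WT array 2, EXGT-A3 without QK array 2 or WT array 2, RALFL27 without QK array 2 or WT array 1, SWEET16 without QK array 1 or WT array 1, and SWEET17 without either QK array or WT array 2.

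Most genes called at 22 °C were also called between QK and WT on the 4 heated arrays, which are other arrays of the same lines. The 2 comparisons are not independent: they share the fit's estimate of the spread, and across probe sets the deviations of arrays with the same number correlated between 22 °C and heat, at r = 0.623 in QK and 0.795 in WT. Of the 150 higher genes, 107 (71.3%) were higher after heat, or 22.4% of the 478 genes higher there, and 0 were lower. Of the 112 lower genes, 83 (74.1%) were lower after heat, or 20.1% of the 413 genes lower there, and 0 were higher. After heat 7.5% of all probe sets were called, 4.17% higher and 3.33% lower. Of the 15 highest genes, 14 were called higher after heat, and of the 15 lowest, 15 were called lower. BGLU19 had a change of 5.36 at 22 °C and 6.51 after heat, ICL 4.62 and 5.51, AT3G47250 -5.69 and -4.70, and CSA1 -2.42 and -2.26. The combined share, 72.5%, ranged from 58.3% to 77.9% when single arrays were left out.

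The pair of A2QK and hsfa2 at 22 °C uses arrays of other lines, and here QK-derived seedlings are again set against Col-0 seedlings. In this pair 2.74% of all probe sets were called, 1.62% higher and 1.13% lower. Of the 150 higher genes, 55 (36.7%) were higher in A2QK, or 27.8% of the 198 genes higher there. Of the 112 lower genes, 56 (50%) were lower in A2QK, or 37.3% of the 150 genes lower there. None of the 262 was called in the opposite direction (0 genes), and 133 of the 150 higher and 104 of the 112 lower genes had the same sign. The combined share, 42.4%, was 20.4% without A2QK array 1.

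Gene groups differed in how they stood in A2QK. Of 38 LEA genes, 7 were higher and 3 lower in A2QK than in hsfa2, with a median of 0.58, and of 15 oil body, storage and reserve genes, 4 were higher and 0 lower, with a median of 0.61. The 3 lower were COR15A (-4.30), COR15B (-4.10) and DI21 (-1.26). ICL had a change of 3.32 in that pair and LEA18 4.57, whereas PAP85 had -0.02 and OLEO3 -0.04. The differences between the 2 changes of a gene were not tested. NB-LRR genes were called lower in 9 of 90, among them AT4G19500 (-3.48) and CSA1 (-3.04). Small heat shock proteins were higher in A2QK in 6 of 9, and HSP17.6C had a change of 0.15 between QK and WT and of 8.17 between A2QK and hsfa2.

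**Figure D5:**
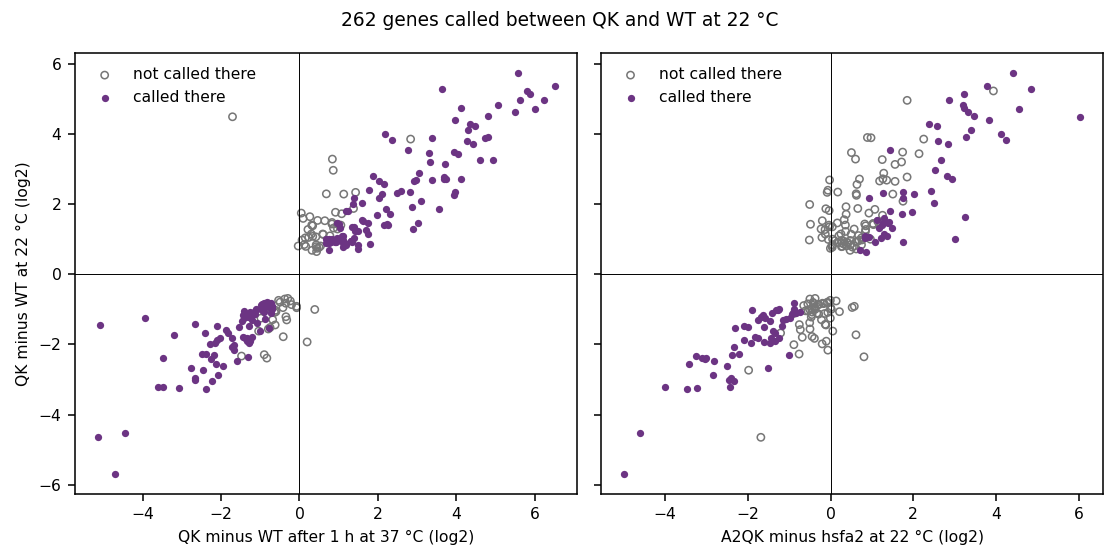
Change between QK and WT at 22 °C (vertical axis, log2) of the 262 called genes against their change between QK and WT after 1 h at 37 °C (left panel) and between A2QK and hsfa2 at 22 °C (right panel), with filled points for genes called there and open points for the rest. In the left panel 190 of the 262 genes are called in the same direction and in the right panel 111, and AT5G07330 stands alone at the upper left of the left panel.

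For a few genes called at 22 °C the difference between QK and WT depended on temperature. The difference at 22 °C minus that after heat was called for 343 probe sets (1.51%), 18 of them among the 498 called at 22 °C and 6 of these with a named gene. Over all named genes it was called for 175, among them 7 of 10 listed co-chaperones and 4 of 9 listed small heat shock proteins. AT5G07330 had levels of 6.67 and 8.75 in QK and 2.68 and 3.75 in WT at 22 °C, and 7.33 and 8.83 in QK and 9.82 and 9.76 in WT after heat. The QK arrays thus held about the same level at both temperatures, and the WT arrays lay above them only after heat. That change after heat, -1.71, was not called by limma (adjusted p = 0.134). IAA29 had 4.54 and 4.27 in QK and 6.40 and 6.26 in WT at 22 °C, and 7.05 and 7.25 in QK and 7.09 and 6.82 in WT after heat, so that the lines overlapped only after heat. SGT1A and AT3G14200 were lower in QK at both temperatures, with changes of -1.23 and -1.43 at 22 °C and -3.94 and -5.10 after heat. The call of AT3G14200 at 22 °C was lost without QK array 2 or without either WT array.

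The share of called genes around the HSFA1 loci, where QK carries its mutations, was below or above that elsewhere depending on the window. Among the 100 annotated genes on each side of each locus, 6 of 395 measured genes were called (1.52%), against 256 of 12960 elsewhere (1.98%). The share was 1.55% with 50 genes on each side, against 1.97% elsewhere, and 2.64% with 200, against 1.92% elsewhere. These shares were not tested. Near HSFA1E lay AT3G02480 and AT3G03170, near HSFA1D AtLEA4-1, near HSFA1B AT5G16990, and near HSFA1A AT4G16880 and AT4G18340. Of these, AT3G02480 was lost without QK array 2 or WT array 1, AT3G03170 without QK array 1 or WT array 2, AT4G16880 without WT array 2, and AT4G18340 without QK array 1, either WT array at 22 °C and several arrays of other groups. Gene order is that of the TAIR10.1 assembly. By chromosome, the called share ran from 1.57% on chromosome 2 to 2.35% on chromosome 5. On chromosome 1, 48 called genes were higher and 18 lower, while chromosome 4 had 18 higher and 21 lower.

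Some called genes lay side by side. Among 12219 pairs of measured genes next to each other in the order of measured genes, 13 pairs had both members called, 7 of them in the same direction, and 26 of the 253 called genes with a position (10.3%) belonged to such a pair. Of the 11971 measured genes that were not called, 471 (3.93%) lay beside a called gene, and the difference between these shares was not tested. BGLU45 and BGLU46 are neighbours, and so are AT1G54860 and AT1G54870, with changes of 2.30 and 4.96. AT3G28310 and AT3G28320 also adjoin, and both were higher on QK array 1: AT3G28310 had 9.59 and 6.37 in QK and 4.46 and 3.79 in WT. In AT5G26270 and AT5G26280 the changes went opposite ways, -3.21 and 1.40. AT3G28310 was not called without QK array 1, without either WT array, or without any single A2QK or hsfa2 array. AT5G26280 was not called without either QK array, WT array 2 or either unheated A2QK array. Probe sets of adjoining related genes can share hybridising RNA, which was not tested.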

How the data were processed

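Whole-seedling RNA was hybridised to 16 Affymetrix arrays. Per the submitters' processing notes, the deposited log2 values are the authors' RMA output; its version, the chip definition and any joint normalization of the arrays are not given in the sources used. RMA gives arrays a similar distribution, which lessens shifts common to most transcripts and compresses dim probe sets.

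Of 22810 probe sets, 64 controls were left out. The platform annotation lists 13513 with a single gene and 503 with several and does not list 8730 (38.4%). RefSeq (TAIR10.1) matched 13436, giving 13355 genes, each read from its probe set with the highest mean. Roles of loci without a symbol come only from textbook catalogues. The test was limma 3.58.1 in R 4.3.3, by lmFit and eBayes (8 group means, 16 arrays, 8 residual and 3.37 prior degrees of freedom); p-values are two-sided and Benjamini-Hochberg adjusted within a comparison. The fit was tested on simulated data.

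Members and lists were chosen with earlier results of these data known. The fixed lists hold 468 genes, 86 measured, 6 called. Named genes are the 15 highest and 15 lowest called genes without overlap, called list members, members that describe a list, and up to 5 that changed with temperature. Arrays have no read depth; 2 arrays a group limit the precision. No label ties the arrays of a group to separate cultures, so the p-values reflect a spread between samples that may be technical. Alternatives were other normalizations, filters, fits and leaving out each array. No sequence was given, so none is printed.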

Additional observations from a re-analysis of the deposited data

Results flagged for a closer look

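The difference between QK and WT differed between 22 °C and after heat for 175 named genes, by limma's test of the difference itself (adjusted p under 0.05); 6 of them were also called at 22 °C and come first here; the value is the change at 22 °C minus that after heat, log2 ± SE. AT5G07330 had 6.20 ± 0.86 (adjusted p = 0.00257), with changes of 4.49 at 22 °C and -1.71 after heat, the latter not called. AT3G14200 had 3.66 ± 0.36 (adjusted p = 0.000217) and SGT1A 2.71 ± 0.31 (adjusted p = 0.000596), both lower in QK at both temperatures and further below WT after heat. IAA29 had -2.12 ± 0.23 (adjusted p = 0.000491), with changes of -1.93 at 22 °C and 0.19 after heat. AT2G21820 had 1.81 ± 0.40 (adjusted p = 0.0488), with levels of 6.45 and 7.40 in QK and 3.01 and 2.84 in WT at 22 °C, and 7.73 and 7.81 in QK and 5.51 and 5.65 in WT after heat. AT4G31000 lay outside the naming rule and is named after its values were seen: it had -1.60 ± 0.32 (adjusted p = 0.0263), with changes of 1.29 at 22 °C and 2.89 after heat. Of the genes described above that were not called at 22 °C, 4 small heat shock protein genes passed this test: HSP26.5 had 8.15, HSP15.7 6.42, HSP22 6.34 and HSP17.6B 6.17. Of the co-chaperones beside SGT1A, HOP3 had 5.71, DNAJ 4.83, FES1A 4.64, HSA32 3.89, AHA1 3.42 and HOP2 1.97. All 10 had lower changes after heat than at 22 °C. HSP70-17 had -1.67, with changes of 0.24 at 22 °C and 1.92 after heat.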

How the results depend on the processing

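With the 8 QK and WT arrays fitted alone, limma called 47 probe sets between QK and WT at 22 °C (21 higher, 26 lower, 47 at least 2-fold), 677 after heat and 89 for the difference between temperatures; 1 member of the fixed lists and 0.253% of genes near the HSFA1 loci were called, and 89.7% of called genes were called the same way after heat. With the 4 arrays at 22 °C alone every count was 0, including list members and genes near the loci (0%); 1405 probe sets had an unadjusted p under 0.05, and the smallest adjusted p was 0.106. Leaving out 1 array gave 272 to 634 calls, 134 to 385 higher, 138 to 261 lower and 256 to 564 at least 2-fold; the low ends came without WT array 2. The same settings gave 3 to 9 called list members, 1.01% to 2.53% near the loci, 1143 to 1919 calls after heat, 169 to 721 between A2QK and hsfa2, 256 to 384 for the difference between temperatures, and shares of 58.3% to 77.9% after heat and 20.4% to 57% in A2QK against hsfa2. The 169 came without A2QK array 1. Equal medians (529 calls), quantile normalization (508), dim probe sets left out (472) and limma-trend (470) kept every count over all probe sets within 1.5 times. Among the lists, equal medians gave 2 co-chaperones, not 1, and equal medians, limma-trend and leaving out dim probe sets gave 1 HSP70 gene, not 0; SAG101 was among the dim ones left out. The share near the loci was 1.55% with 50 and 2.64% with 200 genes on each side.

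The labels do not say that array numbers mark a batch, but deviations of QK and WT arrays with the same number correlated at r = 0.535 at 22 °C. With a replicate block limma called 672 probe sets, and 15 LEA genes, HSC70-2, P23-1 and LEA4-5 were called. The block on the QK and WT arrays alone gave 506 calls, against 47 on the same arrays without it, with 12 LEA, 9 reserve and 3 seed list genes.

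In every called gene the QK arrays did not overlap the WT arrays, so leaving out a single array could not change its sign. The block, limma-trend, leaving out dim probe sets and the fits on QK and WT arrays alone keep the change itself. Only equal medians and quantile normalization could therefore change the sign of a called gene. Of 126 genes named or counted here, none that was called changed sign under them (0 genes). Uncalled ones did when single arrays were left out: HSP22 ranged from -0.16 to 0.069, HSP17.6C from -0.073 to 0.38, HSC70-3 from -2.67 to 0.18, HSP70-17 from -0.028 to 0.51, FES1A from -1.61 to 0.013, HSA32 from -0.73 to 0.18, HOP1 from -0.42 to 0.34, COR47 from -0.017 to 1.54, COR15A from -0.67 to 0.59, COR15B from -2.18 to 0.34, ALPHA-VPE from -0.023 to 1.096 and GAMMA-VPE from -0.27 to 0.82. Of the 94 called among them, 76 lost their call with QK and WT arrays alone, 23 with the block on the same arrays, and 94 with 4 arrays; the cause was not tested.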
